A study of Mus musculus with 12 samples.

Results

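A group of 10 transcription factors known from resting naive T cells was examined in mouse thymocytes on oligonucleotide arrays: Bach2, Foxo1, Foxp1, Klf3, Klf13, Lef1, Tcf7, Ets1, Satb1 and Ikzf1. A gene was taken at every probe set on the 3 array types that carried its symbol and no other. For 9 of the 10 genes there were 33 such probe sets, out of 15964 genes with a probe set of 1 symbol. Tcf7 was the only symbol of no probe set, so it was not analysed here. Thymocytes of C57BL/6 mice, the wild type, were set against those of AND-TCR–transgenic mice of the H-2b haplotype. The AND transgene encodes a rearranged TCR that recognizes a peptide with MHC class II, so that thymocytes of H-2b mice bearing it are positively selected into the CD4 lineage. Total thymocytes of adult mice were the starting material, while how many mice there were, how old they were and which promoter drove the transgene is not given. Each group had 2 hybridizations on each array type, Affymetrix U74Av2, U74Bv2 and U74Cv2, which makes 4 arrays per type and 12 in all.

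A naive T cell leaves the thymus small and metabolically quiet, and stays so until it meets antigen. Foxo1, a forkhead factor held out of the nucleus by PI3K and Akt signals, drives genes for survival, homing and recirculation, and Foxp1, also a forkhead factor, restrains the response to IL-7 and to the TCR. Bach2 represses effector genes, Klf3 and Klf13 are zinc finger factors of the Krüppel-like family, and Lef1 and Tcf7 are HMG-box factors that work with β-catenin. Ets1 is an ETS-domain activator needed for T cell survival, Satb1 folds chromatin in thymocytes, and Ikzf1 (Ikaros) is a zinc finger factor that limits proliferation. Many of these factors are already present in the thymus, and several are known to change between the double-positive stage, at which thymocytes carry CD4 and CD8, and the mature single-positive stage.

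Markers of thymocyte stages differed between the groups. Of 11 marker genes of double-positive thymocytes on the arrays, 10 were above the detection limit on all 4 arrays of their type, so the labelled tissue carried its defining genes. Their summed intensity, with each gene taken at 1 probe set, was 191381 and 190660 on the C57BL/6 arrays and 68837 and 76733 on the AND-TCR–transgenic arrays. For 11 markers of mature single-positive thymocytes the sums were 51610 and 52906 in C57BL/6 and 123230 and 123063 in AND-TCR–transgenic thymocytes. These sums differed between the groups, and their part in the difference of any gene described here was not tested. In bulk RNA, more cells of a type and more RNA per cell cannot be told apart. Markers of B cells summed to 24960 and 25628 against 21567 and 23387, with 2 of 8 above the limit on all 4 arrays and 2, Cd22 and Cr2, on none. Markers of macrophages and dendritic cells summed to 2001 and 4614 against 4352 and 4253, of red blood cell precursors to 9951 and 11555 against 7308 and 5150, and of thymic epithelium to 3809 and 4073 against 4183 and 7106.

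Intensities are in arbitrary units, and they were compared only between arrays of 1 type and within 1 probe set. A detection limit was derived from the negative values of each array type, which was 420.8 on U74Av2, 869.4 on U74Bv2 and 1579 on U74Cv2, and a probe set was tested with limma when both arrays of at least 1 group were above it. Of the 33 probe sets of the factors 31 were tested, 30 of them above the limit on all 4 arrays. The methods speak of 2 independent experiments, but neither they nor the labels say whether the hybridizations came from separate mice, so the p-values measure only the spread between hybridizations, which may be technical, and the small number of arrays limits the precision. The fluidics module was 2 for every C57BL/6 array and 4 for every AND-TCR–transgenic one, so that module and genotype cannot be told apart. The first hybridizations of both groups shared 1 day and the second hybridizations another, and on U74Av2 these days also differed in chip lot. The ratio of the 2 groups within each day is therefore given with the fitted value.

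Bach2 was higher in AND-TCR–transgenic thymocytes, and it was the 1 factor with a difference past the test. Its probe set, 135069_at on U74Cv2, gave an intensity of 4940 in the first and 7046 in the second C57BL/6 hybridization, and of 18855 and 16046 in the AND-TCR–transgenic ones. Both AND-TCR–transgenic arrays stood far above both C57BL/6 arrays, with means of 17450 ± 1987 (SD, n = 2) and 5993 ± 1489 (SD, n = 2). The fitted difference was 2.95-fold (log2 fold change 1.56, with a standard error or SE of 0.25, 95% confidence interval 0.97 to 2.14, limma's adjusted p = 0.0458), with ratios of 3.82 on the first day and 2.28 on the second. Over all 12844 tested probe sets 0.483% were called higher and 0.568% lower at an adjusted p under 0.05, against 1 and 0 of the 31 probe sets of the factors. The call of Bach2 lay close to the threshold. It was lost where limma's prior variance had no trend (adjusted p = 0.122) and with no filter on low values (0.259). Few probe sets passed at all there, 1 higher and 9 lower with no trend and 1 and 3 with no filter. Adjustment within each array type (0.121) and a floor at 1 or 4 noise SDs (0.0609 and 0.0524) lost it too. Over all probe sets these settings called 74, 49 and 61 higher and 90, 61 and 79 lower, in that order. The call of Bach2 was kept with quantile normalization (limma's adjusted p = 0.0414) and without rescaling (0.0458). It was also kept with all 4 arrays required above the limit (0.0134) and with the hybridization number as a replicate block (0.00137). Fits without 1 of the 4 hybridizations could not judge the call, because a group then holds 1 array. In those fits the log2 fold change of Bach2 stayed between 1.30 and 1.82.

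The gene lies on the plus strand at chr4:32238413-32586109 in the RefSeq annotation of GRCm38.p6. The 250 bases upstream of the start that RefSeq's promoter table uses, chr4:32417185-32417434 within that span, are shown because Bach2 carries the 1 called difference and because another of the factors, Ets1, belongs to the family whose core motif was found there. The sequence is RefSeq's, 5′ to 3′ on the plus strand, and capitals mark the match:

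Bach2: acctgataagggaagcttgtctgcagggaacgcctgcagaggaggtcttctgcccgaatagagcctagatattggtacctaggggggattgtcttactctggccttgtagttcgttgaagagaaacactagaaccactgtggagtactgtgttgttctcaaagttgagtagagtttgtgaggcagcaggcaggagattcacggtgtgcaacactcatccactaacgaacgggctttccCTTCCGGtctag

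The match is to CCGGAAG, a letter pattern used here for ETS factors, on the opposite strand of the window as CTTCCGG. It occurred in 6.91% of 32851 upstream windows of the same length and in 2 of 20 windows of 9 of the factors, 1 of Bach2 and 1 of Tcf7; Ets1 itself had no entry. Patterns for forkhead (GTAAACA), TCF/LEF (CTTTGAT) and BACH (TGAGTCA) factors, read on both strands, matched none of the 20 windows and 3.17%, 3.21% and 4.46% of all windows. A Krüppel-like pattern (CCACACCC, 3.2% of all windows) matched 1 window of Tcf7, and an Ikaros pattern (TGGGAA, 21.6%) matched 1 window of Satb1. Such matches describe letters and were not tested as binding sites. The GC content of the Bach2 window was 50.4%, beside a median of 52.4% over all windows.

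**Figure D1:**
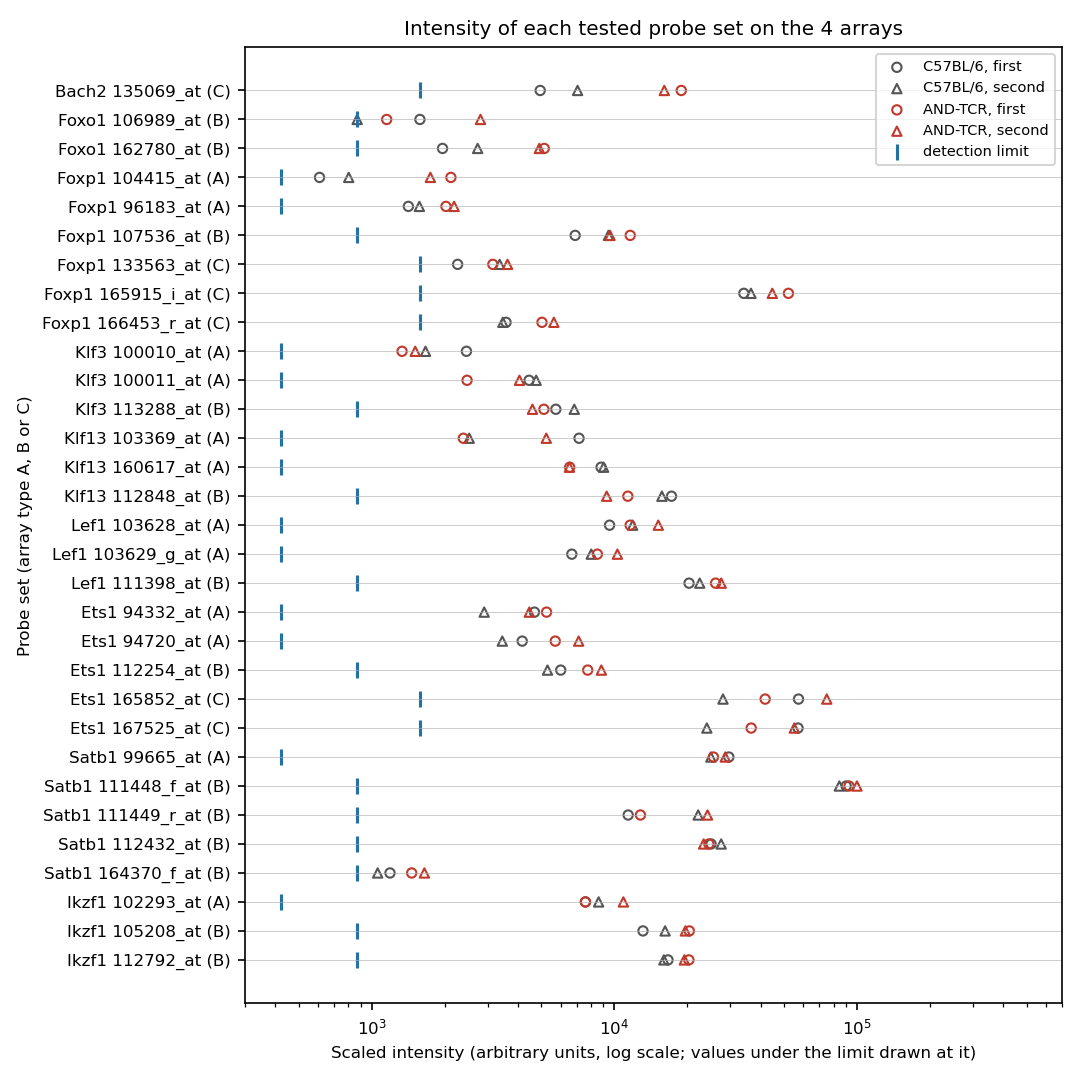
Scaled intensity (x axis, arbitrary units, log scale) of each tested probe set of the factors (y axis, with its array type) on its 4 arrays. Circles are first and triangles second hybridizations, grey for C57BL/6 and red for AND-TCR–transgenic thymocytes, and the vertical bars mark the detection limit, at which values under it are drawn. For Bach2 both red points, 16046 and 18855, lie to the right of both grey points, 4940 and 7046, while for Ets1 on U74Cv2 the colors interleave.

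More probe sets of the factors had positive than negative values, while Bach2 alone passed the test. Among the 31 tested probe sets 23 log2 fold changes were positive and 8 negative, and their median was 0.33, against 0.02 over all tested probe sets. In both AND-TCR–transgenic hybridizations at once, the intensity was above both C57BL/6 hybridizations at 15 probe sets, beside 23.0% of all tested probe sets, and below both at 6, beside 21.4%. Counted by day, 20 probe sets were higher on both days (30.2% of all tested), 6 were lower on both (27.6%), and 5 went opposite ways. At an unadjusted p under 0.05 in limma 9 were higher (7.47% of all tested) and 2 lower (6.51%), and 30 of the 31 failed the adjustment. Probe sets of 1 gene measure the same transcripts and are not independent. Every tested probe set of Bach2, Foxo1, Foxp1, Lef1, Ets1 and Ikzf1 had a positive value, every one of Klf3 and Klf13 a negative value, and those of Satb1 were divided.

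**Figure D2:**
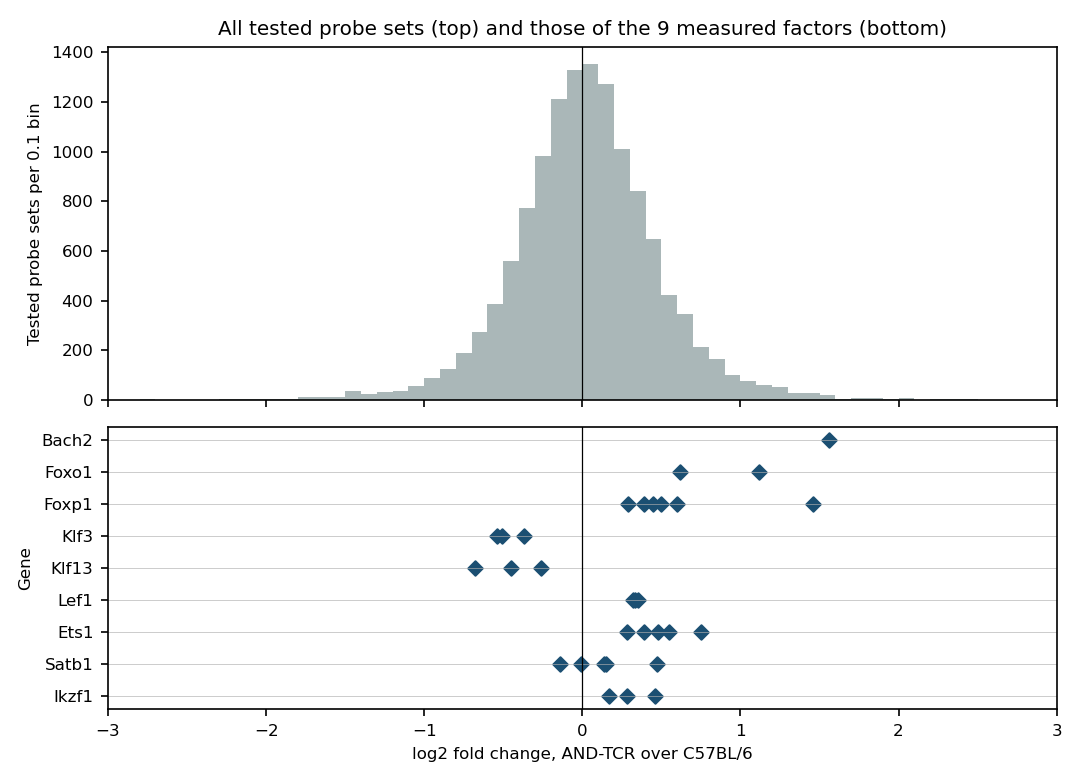
Histogram of log2 fold changes (x axis, AND-TCR–transgenic over C57BL/6) for all 12844 tested probe sets in bins of 0.1 (top, y axis in probe sets), with 1 diamond per tested probe set of each measured factor below. The 31 diamonds have a median of 0.33 and all probe sets a median of 0.02, and Klf3 and Klf13 lie on the negative side throughout.

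Foxo1, which carries survival and homing programs, had 2 tested probe sets, and both were on U74Bv2. The first of them, 162780_at, read 1955 and 2728 in C57BL/6 and 5134 and 4902 in AND-TCR–transgenic thymocytes. These groups did not overlap, and the difference was 2.17-fold (log2 fold change 1.12, SE 0.22, 95% confidence interval 0.57 to 1.67, limma's adjusted p = 0.106), with ratios of 2.63 and 1.80. It was called higher, at an adjusted p of 0.0448 from limma, when only probe sets above the limit on every array were tested. This stricter filter called 129 of all 10053 probe sets it tested higher and 127 lower, and among the 30 of the factors 3 and 1. At the other, 106989_at, the values were 1577 and 746 (under the limit) in C57BL/6 and 1150 and 2803 in AND-TCR–transgenic thymocytes. There the groups overlapped, with a ratio of 0.729 on the first day and, against the limit, of at least 3.22 on the second (log2 fold change at least 0.62, SE 0.52, limma's adjusted p = 0.676), and without the second AND-TCR–transgenic array the log2 fold change was at least -0.03. The remaining probe set of Foxo1, 106561_at, with 396 and 778 against 559 and 978, was above the limit on 1 array and was not tested.

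Foxp1, the forkhead factor that restrains IL-7 and TCR responses, had 6 tested probe sets, all with positive values, from 0.29 to 1.46 on the log2 scale. The widest difference was at 104415_at on U74Av2, with 608 and 802 in C57BL/6 and 2117 and 1742 in AND-TCR–transgenic thymocytes. That is 2.75-fold, with no overlap between the groups (log2 fold change 1.46, SE 0.33, 95% confidence interval 0.68 to 2.24, limma's adjusted p = 0.108), at ratios of 3.48 and 2.17 on the 2 days. The same stricter filter gave it an adjusted p of 0.0376 in limma. Its partner on the same array type, 96183_at, gave 1414 and 1569 against 2019 and 2182 (log2 fold change 0.50, SE 0.25, limma's adjusted p = 0.447). Here too the groups stood apart, but the ratios, 1.43 and 1.39, were smaller. On U74Bv2, 107536_at read 6885 and 9444 against 11611 and 9586, and its ratio was 1.69 on the first day and 1.01 on the second. On U74Cv2 there were 3 probe sets, of which 165915_i_at read 34152 and 36543 against 52134 and 44744 (log2 fold change 0.45, SE 0.16, limma's adjusted p = 0.281). For 166453_r_at the readings were 3573 and 3466 against 5024 and 5624, again without overlap. The r in this name is a letter that Affymetrix adds to probe sets designed under relaxed rules, and 165915_i_at carries another suffix letter, i. At 133563_at the groups overlapped, with 2256 and 3362 against 3151 and 3622. Each of the 6 was higher in AND-TCR–transgenic thymocytes on both days, beside 30.2% of all tested probe sets. In 5 of them both AND-TCR–transgenic arrays were above both C57BL/6 arrays, beside 23.0% of all, and probe sets of 1 gene are not independent.

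Ets1, an activator needed for T cell survival, also had positive values at each of its 5 probe sets, yet those on U74Cv2 turned around between the days. On U74Av2, 94720_at read 4165 and 3447 in C57BL/6 and 5699 and 7118 in AND-TCR–transgenic thymocytes. The groups did not overlap, at 1.68-fold (log2 fold change 0.75, SE 0.19, 95% confidence interval 0.31 to 1.19, limma's adjusted p = 0.136), with ratios of 1.37 on the first day and 2.06 on the second. With the hybridization number as a replicate block the adjusted p from limma was 0.0467. That fit called 1.21% of all tested probe sets higher and 1.18% lower, and among those of the factors 2 and 0. On U74Bv2, 112254_at gave 6003 and 5295 against 7756 and 8830, with ratios of 1.29 and 1.67 (log2 fold change 0.55, SE 0.13, limma's adjusted p = 0.164). At 94332_at the groups overlapped, with 4678 and 2903 against 5248 and 4455. The U74Cv2 probe set 165852_at read 57387 and 28013 in C57BL/6 and 41807 and 75025 in AND-TCR–transgenic thymocytes. Its ratio was 0.729 on the first day and 2.68 on the second. The other one, 167525_at, read 57121 and 24032 against 36612 and 55140, with ratios of 0.641 and 2.29. On both, the C57BL/6 reading was the higher of the pair on the first day and the lower on the second, and neither passed the test (adjusted p = 0.651 and 0.821 from limma). Without the second C57BL/6 array their log2 fold changes were -0.04 and -0.35, and that of 167525_at was -0.02 without the second AND-TCR–transgenic array.

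Lef1, an HMG-box partner of β-catenin, showed the most even differences between its probe sets and days, all of them small and none past the test. On U74Bv2, 111398_at read 20300 and 22462 in C57BL/6 and 26116 and 27549 in AND-TCR–transgenic thymocytes. This is 1.26-fold without overlap (log2 fold change 0.33, SE 0.10, 95% confidence interval 0.09 to 0.57, limma's adjusted p = 0.228). On U74Av2, 103629_g_at read 6670 and 8023 against 8500 and 10281 (log2 fold change 0.35, SE 0.17, limma's adjusted p = 0.408). At 103628_at the values were 9546 and 11878 against 11606 and 15161, and the first AND-TCR–transgenic array lay just under the second C57BL/6 array. The 6 ratios of the 3 probe sets and 2 days ran from 1.22 to 1.29.

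Ikzf1, known as Ikaros, had 3 tested probe sets with positive values of up to 0.46 on the log2 scale. At 105208_at on U74Bv2 the arrays gave 13108 and 16170 in C57BL/6 and 20341 and 19606 in AND-TCR–transgenic thymocytes, with ratios of 1.55 and 1.21 (log2 fold change 0.46, SE 0.13, 95% confidence interval 0.14 to 0.77, limma's adjusted p = 0.203). At 112792_at on the same type they gave 16621 and 15982 against 20266 and 19413, with ratios of 1.22 and 1.21 (log2 fold change 0.28, SE 0.09, limma's adjusted p = 0.252). Neither of these overlapped between the groups. On U74Av2, 102293_at read 7587 and 8603 against 7595 and 10883, so the groups overlapped, and without the second AND-TCR–transgenic array its log2 fold change was -0.09. A further U74Av2 probe set, 102294_at, read 422 and -39.2 against -12.3 and 284, above the limit on 1 array, and was not tested.

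The Krüppel-like factors had negative values throughout, and none passed the test. Klf13, a regulator of the chemokine RANTES in T cells, had its clearest difference at 112848_at on U74Bv2, which read 17186 and 15687 in C57BL/6 and 11350 and 9286 in AND-TCR–transgenic thymocytes. The groups did not overlap, with ratios of 0.660 and 0.592 (log2 fold change -0.68, SE 0.13, 95% confidence interval -1.0 to -0.35, limma's adjusted p = 0.101), and the stricter filter called it lower (adjusted p = 0.0331). On U74Av2, 160617_at gave 8804 and 9019 against 6537 and 6520, with ratios of 0.742 and 0.723 (log2 fold change -0.45, SE 0.13, limma's adjusted p = 0.198). Replicates lay close together at this probe set, with SDs of 152 (n = 2) and 11.9 (n = 2). The remaining probe set, 103369_at, read 7143 and 2518 against 2382 and 5234. Its ratio was 0.333 on the first day and 2.08 on the second, and its log2 fold change of -0.26 became 0.30 without the first AND-TCR–transgenic array and 0.49 without the first C57BL/6 array. It overlapped between the groups and gave no stable direction.

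Klf3, a repressor of the same family that recruits CtBP, read lower on both AND-TCR–transgenic arrays than on both C57BL/6 arrays at all 3 of its probe sets, and none passed the test. Of all tested probe sets 21.4% read lower in this way, and probe sets of 1 gene are not independent. At 100010_at on U74Av2 the readings were 2453 and 1663 in C57BL/6 and 1331 and 1508 in AND-TCR–transgenic thymocytes (log2 fold change -0.51, SE 0.30, limma's adjusted p = 0.516). At 100011_at, on the same type, they were 4445 and 4755 against 2467 and 4058 (log2 fold change -0.54, SE 0.25, limma's adjusted p = 0.407). At 113288_at on U74Bv2 they were 5732 and 6827 against 5117 and 4590 (log2 fold change -0.37, SE 0.15, limma's adjusted p = 0.369). All 6 ratios were under 1 and ran from 0.543 to 0.907. The U74Av2 probe sets were lower mainly on the first day, at 0.543 and 0.555, and 113288_at mainly on the second, at 0.672.

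Satb1, which organizes chromatin in thymocytes, had values of both signs over its 5 probe sets on U74Av2 and U74Bv2, and none passed the test. At 99665_at the arrays gave 29615 and 24971 in C57BL/6 and 25583 and 28630 in AND-TCR–transgenic thymocytes. The log2 fold change there was -0.01, with a 95% confidence interval from -0.36 to 0.35 (limma's adjusted p = 0.991), and it was 0.12 without the first C57BL/6 array and 0.07 without the first AND-TCR–transgenic array. At 112432_at the readings were 25010 and 27532 against 24496 and 23311 (log2 fold change -0.14, SE 0.10, limma's adjusted p = 0.608, and 0.01 on the log2 scale after quantile normalization). At 111448_f_at they were 90184 and 84576 against 92708 and 99932, a log2 fold change of 0.14 with a 95% confidence interval from -0.11 to 0.39. Neither group stood consistently above the other over these 3 probe sets. At 111449_r_at the values differed more between the days than between the groups, with 11388 and 22136 in C57BL/6 and 12794 and 24187 in AND-TCR–transgenic thymocytes. Its log2 fold change of 0.15 became -0.31 without the second AND-TCR–transgenic array and -0.33 without the first C57BL/6 array. Its name carries the letter r, which Affymetrix adds under relaxed design rules. The last of the 5, 164370_f_at, read 1187 and 1056 against 1459 and 1645, without overlap (log2 fold change 0.47, SE 0.24, limma's adjusted p = 0.459).

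**Figure D3:**
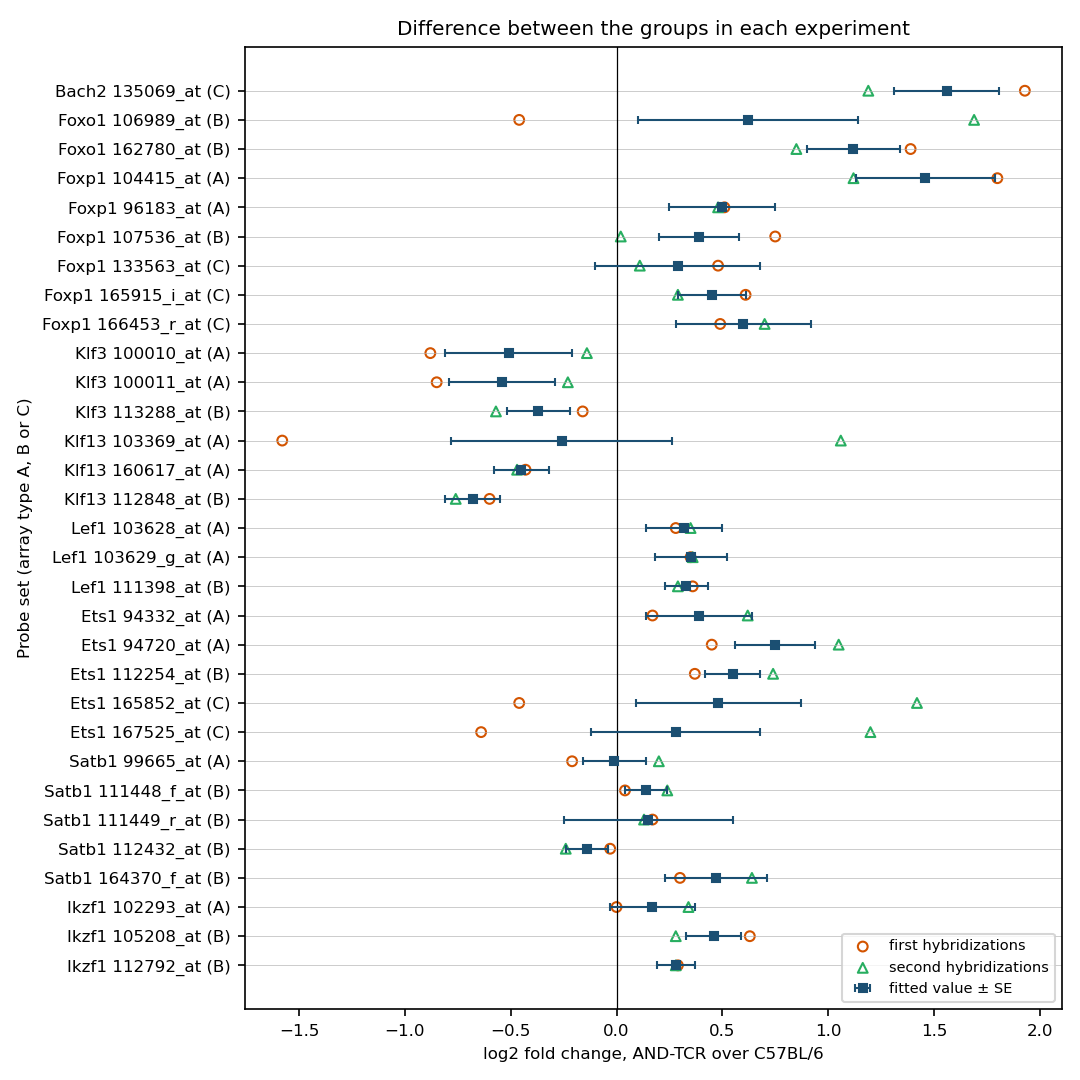
Difference between the groups (x axis, log2 fold change, AND-TCR–transgenic over C57BL/6) at each tested probe set of the factors (y axis, with its array type). Circles show the first and triangles the second hybridizations, and squares with bars show the fitted value ± its standard error (n = 2 hybridizations per group). Bach2 at 1.56 lies farthest to the right, the 3 probe sets of Lef1 lie between 0.32 and 0.35, and the circle and triangle of the Klf13 probe set 103369_at lie on opposite sides of 0.

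Relatives of the factors in the same DNA-binding families had values on both sides of 0. Of 33 such genes 18 were tested, each at the probe set with its highest mean intensity, with a median log2 fold change of -0.06. Over the 7843 genes tested in this way the median was 0.03, with 0.65% higher and 0.612% lower. Ets2, a close relative of Ets1, was the 1 called relative, with 9325 and 8817 in C57BL/6 and 4603 and 3091 in AND-TCR–transgenic thymocytes. It was 2.40-fold lower (log2 fold change -1.27, SE 0.21, limma's adjusted p = 0.047), and the difference between Ets2 and Ets1 was not tested. Ets2 had 2 tested probe sets, of which only 1 was called. The Krüppel-like factors Klf6, Klf7 and Klf10 had log2 fold changes of 0.28, 0.18 and -0.29, that of Klf9, with both AND-TCR–transgenic arrays under the limit, was at most -0.22, and Klf2, which drives exit from the thymus, had no probe set above the limit on both arrays of a group. Cofactors of the 10 proteins gave no call among 16 tested genes of 21, with 0 higher and 1 lower at an unadjusted p under 0.05 in limma and a median of 0.01. β-catenin (Ctnnb1), the partner of Lef1, was at 0.07, and the Groucho corepressors Tle2, Tle3 and Tle5 were at -0.54, 0.13 and -0.05.

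Genes tied to the same programs were uneven. On a list of homing and survival genes, to which Foxo1 targets such as Ccr7 and Il7r belong, 6 of 8 genes were tested, 1 was called higher, none was lower, and the median log2 fold change was 0.70. At an unadjusted p under 0.05 in limma 2 were higher and 1 lower. The called gene was Itgb7, an integrin chain for gut homing, at 2.48-fold (limma's adjusted p = 0.0248). Ccr7, which the study itself named for these arrays and which encodes a chemokine receptor of mature thymocytes, gave 928 and 588 in C57BL/6 and 3387 and 2625 in AND-TCR–transgenic thymocytes (log2 fold change 2.01, limma's adjusted p = 0.051), and with the replicate block it was called higher too. S1pr1, the receptor for thymic exit, was at 0.68 or more, since 1 C57BL/6 array was under the limit, and Bcl2, a survival protein, was at 0.71. Il7r, the IL-7 receptor chain, was at -0.44 and Itga4, the α4 integrin chain, at -0.73, each with both AND-TCR–transgenic arrays below both C57BL/6 arrays. None of these 4 passed. Among 16 tested genes of 17 that slow growth or the cell cycle, Slfn1 and Slfn2 were called higher, at 3.67-fold (limma's adjusted p = 0.019) and 2.09-fold (adjusted p = 0.0438). Slfn2 had 2 tested probe sets, of which only 1 was called. The other 14 genes did not pass, and the median of the list was 0.03. Of the antiproliferative factors Btg1 and Btg2, the former was at 0.18 and the latter at -0.52, where Btg2 was called lower with the replicate block (adjusted p = 0.0497).

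Effector genes, among them those that Bach2 is known to repress, were mostly under the limit, with 3 of 12 tested, none called and 1 higher at an unadjusted p under 0.05. Gzma, a granule protease, read 821 and 1373 in C57BL/6 and 3337 and 3411 in AND-TCR–transgenic thymocytes (log2 fold change 1.67, limma's adjusted p = 0.0621, and 0.00469 with the replicate block). Id2 and Ahr were at 0.42 and 0.46. On a list of other transcription factors of thymocytes, 10 of 12 were tested with a median of 0.29, and Tox, a factor of CD4 lineage development, was called higher at 1.91-fold (limma's adjusted p = 0.0341). Tox had 4 tested probe sets, of which only 1 was called. Zbtb7b, also called ThPOK, the factor that commits thymocytes to the CD4 lineage, was under the limit on both C57BL/6 arrays and read 2449 and 3497 in AND-TCR–transgenic thymocytes, which is at least 3.37-fold higher (limma's adjusted p = 0.0798). Gata3, needed for the same lineage, had a log2 fold change of 0.56, Runx1 one of 0.01 and Runx3, a factor of the CD8 lineage that was under the limit on both C57BL/6 arrays, one of at least 0.56. Myb was not called, at -0.72, but was called lower with the replicate block.

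Markers of the stages had the medians farthest from 0 of the lists examined. Of 11 tested double-positive markers 7 were called lower and none higher, with a median of -1.27, and Rag1 and Rag2, the recombinase genes, were at -2.25 and at most -3.24. The others called were the coreceptor chains Cd8a at -0.87 and Cd8b1 at -1.27, the aquaporin Aqp11 at -1.50, the endoribonuclease Endou at -2.10 and the surface protein Ly6d at -1.92. Of 10 tested mature markers 5 were called higher and none lower, with a median of 1.59. These were Slfn1, the GTPase genes Gimap4 at 2.26 and Gimap3 at 1.58, Ms4a4b at 1.67 and the tetraspanin Cd53 at 1.6. Il7r, also on this list, was at -0.44, the 1 tested gene of it with both AND-TCR–transgenic arrays below both C57BL/6 arrays. Gimap3 and Ms4a4b had 2 tested probe sets each, and 6 of the 13 tested probe sets of the list were called higher. The study had chosen Rag1, Rag2, Ccr7, Gimap3 and Gimap4 on these samples, so these lists are not independent evidence of a direction. Of 14 tested genes of dividing cells none was called in limma, while 7 were lower and 0 higher at an unadjusted p under 0.05 and the median was -0.43. Mki67, Top2a, Ccnb2 and Cdk1 were at -0.60, -0.36, -0.36 and -0.53. B cell markers (5 tested, median -0.36), macrophage and dendritic cell markers (5, 0.34), the epithelial markers (2, 0.10) and the 1 tested red blood cell gene, Hba-a1 (-0.96), gave no call, with 1 higher and 2 lower among the B cell markers and Hba-a1 lower at an unadjusted p under 0.05. Of the B cell genes Ms4a1 was at -0.14, Cd79a and Cd79b at most at -1.18 and -0.86, and Blk at least at 2.08. Lyz2, Csf1r and Cd68 were at least at 0.34, 0.21 and 0.39, Itgax at most at -0.37, Ccl25 at least at 0.19 and Epcam at 0.02, where a bound means that at least 1 array was under the limit. Several genes stand on more than 1 list.

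**Figure D4:**
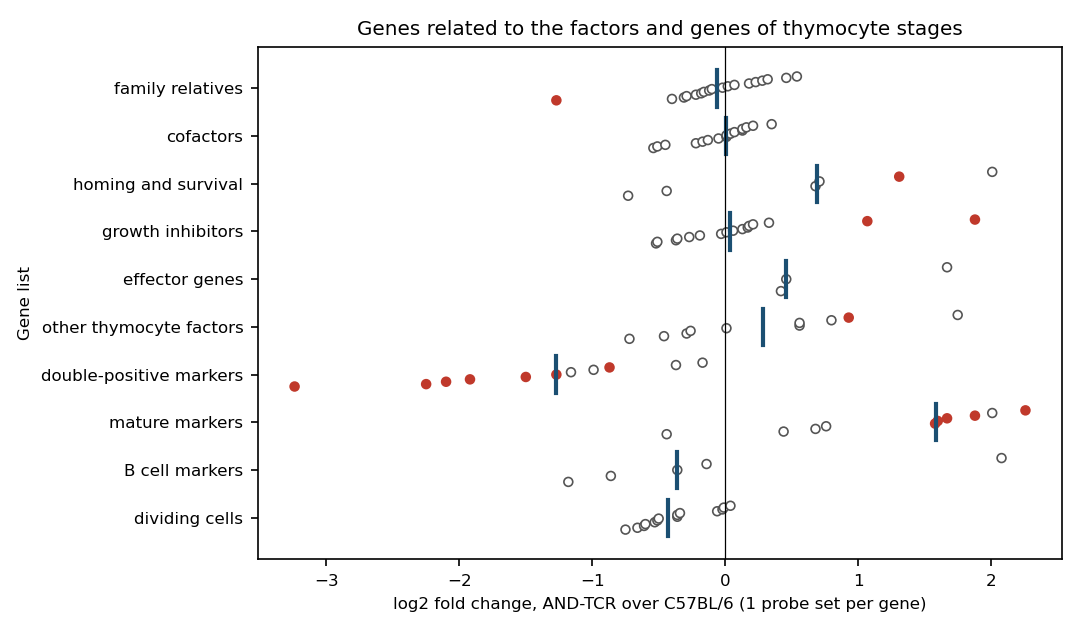
Difference between the groups (x axis, log2 fold change, AND-TCR–transgenic over C57BL/6) for the tested genes of 10 lists (y axis), 1 probe set per gene. Filled points passed an adjusted p under 0.05 in limma, open points did not, and the vertical bar of each list is its median. Medians of the family relatives and the cofactors lie at -0.06 and 0.01, those of the double-positive and mature markers at -1.27 and 1.59.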

How the data were processed

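Total RNA of thymocytes had been labeled with biotin and hybridized by the authors, who scanned the arrays and analyzed them with Microarray Suite. They deposited linear intensities, some of them negative; which type of value these are, and to which target they were scaled, is not given in the sources. Arrays of each type were scaled to a common mean after trimming 2% at each end, which changed little, since the authors' trimmed means lay between 1000.4 and 1000.9. For each type the noise SD was taken as 1.4826 times the median absolute value below 0. Readings below 2 noise SDs, the detection limit, were raised to it and log2 transformed, so folds of dim probe sets are understated, and those of a group wholly below it are bounds.

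Of 36701 probe sets other than controls, 12844 went into limma 3.58.1 (R 4.3.3; lmFit, then eBayes with a trend, 1 fit per array type), with Benjamini-Hochberg adjustment over the 3 types and 0.05 as the threshold. The functions were tested on simulated data. Array types were normalized separately, and levels between types served only to pick a gene's probe set with the highest mean. With 2 arrays against 2, an exact two-sided permutation test cannot go below 0.333, so none is given. Deviations of same-numbered arrays correlated at 0.0354, -0.119 and -0.232 on the 3 types, and the main fit did not pair them. Same-numbered arrays of the 2 groups nevertheless shared a day, which the main fit leaves out. The fit with the replicate block takes it in and is given as an alternative. No pair of arrays of a group held the same values (at most 3 identical values).

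The annotation gave 1 symbol for 29131 of these probe sets, several for 724 and none for 6846, and the identifiers of all 33 probe sets of the factors matched RefSeq (GRCm38.p6). All probe sets of the factors are named, and of each list the called genes or, where none was called, the first 4 tested, with Rag1, Rag2 and Ccr7; other genes named were chosen after their values were seen. The factors, lists and alternatives were chosen with earlier results of these data known. Figures used matplotlib 3.10.9 under Python 3.11.15.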

Additional observations from a re-analysis of the deposited data

How the results depend on the processing

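Of the factors' probe sets 1 was called higher, Bach2, and none lower. This call was kept under quantile normalization and without rescaling, and the number was 0 with the floor at 1 or 4 noise SDs, with no filter on low values, with no trend in the prior variance and with adjustment within each array type. Where testing needed all 4 arrays above the limit, 3 were higher (Bach2, Foxp1 104415_at and Foxo1 162780_at) and 1 lower (Klf13 112848_at). That filter tested 30 probe sets of the factors, and of all 10053 probe sets tested it called 129 higher and 127 lower. The counts over all probe sets, higher and lower, were 1 and 3 with no filter, and 1 and 9 with no trend. They were 49 and 61 with the floor at 1 noise SD, and 61 and 79 with the floor at 4. Adjustment within each array type gave 74 and 90. With the replicate block 2 probe sets of the factors were higher, Bach2 and Ets1 94720_at, and over all probe sets 155 were higher and 151 lower (1.21% and 1.18% of those tested). On the lists the replicate block gave 2 homing and survival genes higher, 1 growth inhibitor lower, 1 effector gene higher, 1 other thymocyte factor lower, 1 B cell marker higher and 1 red blood cell gene lower. Of the double-positive markers 9 were lower (Arpp21 and Dntt in addition) and of the mature markers 7 higher (Ccr7 and H2-K1 in addition). It changed no other call of a listed gene or factor. Crossing the hybridization numbers was an alternative chosen after seeing the data. It gave 6 higher and 1 lower among the 31 tested probe sets of the factors, and 229 and 226 among all 12844 tested.

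Without any 1 hybridization limma called 0 probe sets, the lone array of a group being assumed to vary like the others, while 1290 to 1968 had an unadjusted p under 0.05. The log2 fold change then ranged from -1.02 to 0.49 at Klf13 103369_at, from -0.13 to 0.12 at Satb1 99665_at, from -0.33 to 0.63 at Satb1 111449_r_at, from -0.03 to 1.26 at Foxo1 106989_at (1 array under the limit), from -0.04 to 1.0 at Ets1 165852_at, from -0.35 to 0.90 at Ets1 167525_at and from -0.09 to 0.43 at Ikzf1 102293_at, each changing sign. Quantile normalization turned Satb1 112432_at to 0.01, and no other setting than these turned a sign. The causes were not tested. Dim probe sets near the limit are the least certain.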
